A study of Mus musculus with 12 samples.

Results

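Ribosome biogenesis factors were followed as 40 named genes that encode subunits of RNA polymerase I (Pol I), nucleolar proteins and factors that modify, process and assemble ribosomal RNA (rRNA). They were taken by gene symbol from a list, which was chosen with earlier results of these data known. Of the 40, 39 had a row among the 24108 genes listed and all 39 were among the 13745 genes tested; Noc2l was not analysed here. Bulk RNA-seq had been carried out on mouse neural progenitor cells (NPCs) of the subventricular zone, isolated at postnatal day 9 to 12 from C57BL/6 animals and grown with EGF and bFGF. The design crossed genotype (p53+/+, wild type, or p53-/-, lacking the tumour suppressor p53) with culture: NPCs alone on laminin-coated plates, or in co-culture on a monolayer of primary brain microvascular endothelial cells (bmvECs), each for 48 h. Each of the 4 groups had 3 libraries, from 3 independent biological repeats numbered 17_9, 25_9 and 1_10, and co-cultured NPCs had been detached from the monolayer by selective trypsinization. The study's methods describe the loss of p53 as Cre recombination in culture: NPCs with a loxP-flanked Trp53 gene received an adenovirus that expresses iCre from the CMV promoter, and the control virus held the promoter alone. The labels do not name the virus for these libraries. The study's methods give a mixed background, part C57BL/6J, for its mice with a loxP-flanked Trp53 gene, and name no strain for the NPC donors.

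Ribosomes are made in the nucleolus. Pol I transcribes the rRNA precursor, small nucleolar ribonucleoproteins (snoRNPs) guide its methylation and pseudouridylation, and large assemblies of factors cleave and fold it into the small and the large subunit. The demand for ribosomes is high in dividing cells and low in resting ones, Myc is a known activator of many of these genes, and p53 is known to be stabilised when ribosome assembly fails. Co-culture with bmvECs is used as a model of NPC quiescence, and the question asked of these genes is how their mRNA levels differ with contact and with p53.

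Myc binds DNA with its partner Max at the E-box CACGTG, and 7 members carry this hexamer in the window from 250 bases before to 50 bases after their start site. The 7 stretches of 30 bases are shown, and capitals mark the E-box. Whether the E-box bears on the levels of these members was not tested. Sequences and coordinates are those of RefSeq on GRCm38.p6, read 5′ to 3′ on the strand of the gene.
Mybbp1a (chr11:72441347-72441376, plus strand): aagtgactgtcttctgagccCACGTGtttg
Nop2 (chr6:125131811-125131840, plus strand): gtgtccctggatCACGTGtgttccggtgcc
Pes1 (chr11:3963965-3963994, plus strand): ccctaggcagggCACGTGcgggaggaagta
Tsr1 (chr11:74898092-74898121, plus strand): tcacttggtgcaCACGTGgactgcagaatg
Utp18 (chr11:93885769-93885798, minus strand): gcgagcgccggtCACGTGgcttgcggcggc
Utp20 (chr10:88826765-88826794, minus strand): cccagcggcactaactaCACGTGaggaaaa
Wdr43 (chr17:71616220-71616249, plus strand): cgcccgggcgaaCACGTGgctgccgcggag

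In Nop2 and Utp18 the hexamer began 60 and 20 bases before the annotated start. In the other 5 it began after the annotated start, at offsets from 2 bases in Pes1 to 40 bases in Mybbp1a. A promoter entry was held for 35 of the 40 members, and there was none for Npm1, Fbl, Bop1, Rrp12 and Rrs1. CACGTG was thus present in 20.0% of the members with an entry, against 8.09% of all 27025 genes with an entry and 11.6% of the tested genes. The share was 19.3% among other ribosome biogenesis genes and 18.8% among DNA replication genes. By role, it was in 3 of 9 members of the small subunit processome and 2 of 7 of large subunit assembly. It was in 1 of 3 of late small subunit maturation and 1 of 5 of Pol I transcription. It was in 0 of 3 of the box C/D snoRNP, 0 of 4 of the box H/ACA snoRNP and 0 of 4 nucleolar scaffold proteins and regulators. A second palindrome, CTCGCGAG, was found in 1 member, Tsr1 (2.86%, against 2.11% of the tested genes). Both motifs read the same on either strand and neither contains the other. These matches are a description of letters, not evidence of binding.

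The libraries held 16509710 to 22245224 counts, and a member had from 198 (Gar1) to 28087 (Ncl) counts in a library. Trp53, the targeted gene, read 80.3, 96.6 and 109 CPM (the count relative to the scaled total of the library) in p53+/+ NPCs alone and 11.7, 14.7 and 17.4 CPM in p53-/- NPCs alone; in co-culture it was 61.8 to 78.8 CPM against 13.7 to 19.3 CPM. The p53 target Cdkn1a was 350.2 to 458 CPM in the p53+/+ libraries alone and at most 31.2 CPM in every p53-/- library. All 14 neural progenitor markers were above 1 CPM in all 12 libraries. They summed to 12381 to 16124 CPM alone. In co-culture the sum was 23567 to 31428 CPM in p53+/+ and 18046 to 21296 CPM in p53-/- NPCs. The median log2 fold change of these markers with co-culture was 0.07 in p53+/+ and 0.04 in p53-/- NPCs. The endothelial marker list summed to 98.4 to 146 CPM alone and to 228 to 334 CPM in co-culture; 24 of its 33 genes were under 1 CPM in every library alone, and 3 of 33 in every co-culture. Mural and fibroblast markers summed to 757 and 1339 CPM in the p53+/+ and p53-/- libraries alone of experiment 17_9, against 142 to 267 CPM in the other libraries alone and 108 to 219.9 CPM in co-culture. Of the 18 genes of this list, 8 were under 1 CPM in every library alone, and 7 were above 1 CPM in all 12 libraries.

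Ribosome biogenesis factors were lower in p53+/+ NPCs co-cultured with bmvECs than in those alone. Of the 39 members tested, 36 fell, none rose and all 39 had a log2 fold change below 0, from -1.28 in Nop58 to -0.03 in Rrp1b, with a median of -0.70. Over all genes tested, 18.3% fell and 21.2% rose, and the median was 0.00. The summed level of the members was 4400, 5125 and 5439 CPM alone and 2343, 2885 and 3198 CPM in co-culture, in experiments 17_9, 25_9 and 1_10. Every co-culture library therefore lay below every library alone. The fall exceeded 2-fold in 6 members, and 37 members did not overlap between the groups (25.7% of all genes were lower without overlap). Within the experiments the median of the members was -0.65, -0.76 and -0.71, and 38 members were lower in all 3 experiments (36.6% of all genes). Calls were made with edgeR's quasi-likelihood test with Benjamini-Hochberg adjustment over all genes, at an adjusted p under 0.05.

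The same comparison in p53-/- NPCs also gave 36 lower and 0 higher of 39 members (17.0% and 18.8% of all genes), with a median of -0.75 and a range from -1.09 in Dkc1 to -0.08 in Rrp1b. Their summed level was 6203, 5709 and 6724 CPM alone and 2703, 3651 and 4453 CPM in co-culture. Again no co-culture library reached the lowest library alone, although the spread between the p53-/- co-cultures was wide. In this genotype 3 members fell by more than 2-fold, 38 were lower in all 3 experiments (35.6% of all genes) and 36 did not overlap (21.5%). The median within experiment 17_9 was -1.07, against -0.61 in each of the other 2 experiments. The members not called were Polr1c, Noc3l and Rrp1b in p53+/+ NPCs and Npm1, Noc3l and Rrp1b in p53-/- NPCs.

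In a paired fit, with the experiment as a block, 38 members fell in each genotype (24.1% of all genes in p53+/+ and 23.2% in p53-/- NPCs); Polr1c and Noc3l were added in p53+/+ NPCs, Npm1 and Noc3l in p53-/- NPCs, and Rrp1b remained uncalled in both. The count in p53+/+ NPCs depended on which libraries were kept. It was 22 when the p53+/+ co-culture of experiment 17_9 was left out, in which all 39 members lay below their group mean (10.9% of all genes then fell). Without experiment 25_9 it was 11 (5.66%), and the count in p53-/- NPCs was 21 (5.83%). Endothelial markers rose in the same libraries in which the members fell (28 of 30 tested markers in p53+/+ and 25 of 30 in p53-/- NPCs; Pecam1 was 9.85 to 18.0 CPM in p53+/+ co-culture against at most 0.437 CPM alone, and Cdh5 20.0 to 37.2 CPM against at most 0.0993 CPM). Cldn5 was 1.42 to 5.45 CPM against at most 0.149 CPM. The part of feeder RNA in the fall was not tested. In bulk libraries fewer cells of a type and less RNA per cell cannot be told apart.

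**Figure D1:**
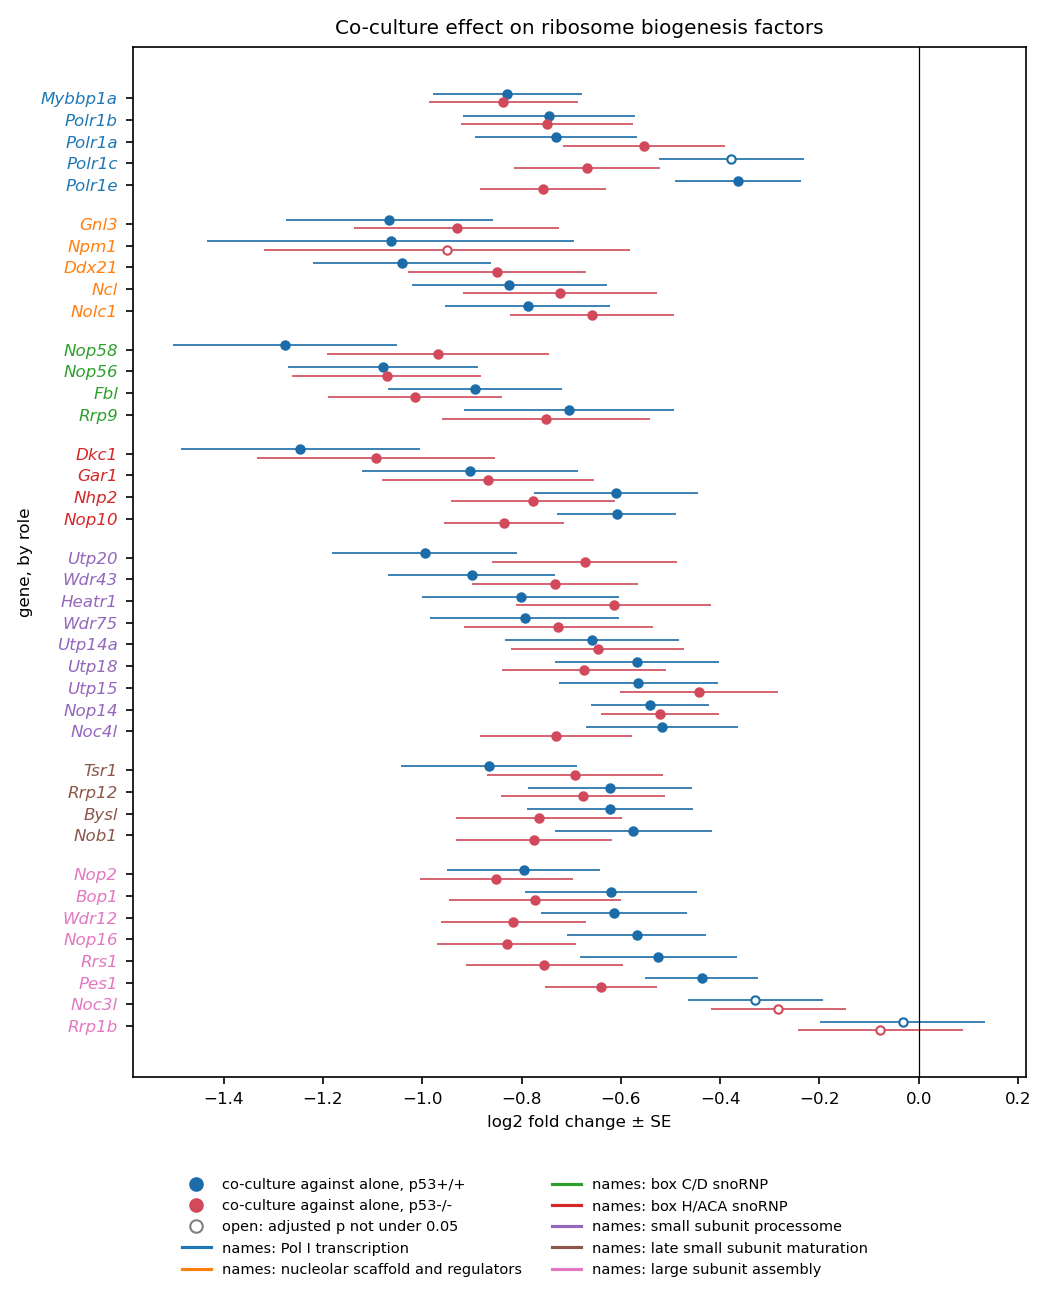
Log2 fold change of co-culture against alone for the 39 tested members (points, with SE as bars), in p53+/+ (blue) and p53-/- NPCs (red), grouped by role; open points did not pass an adjusted p of 0.05. All points lie left of 0, with Nop58 and Dkc1 farthest and Rrp1b at 0 within its SE in both genotypes.

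Genes of Pol I transcription had a median log2 fold change of -0.73 in p53+/+ and -0.75 in p53-/- co-culture. Mybbp1a, a nucleolar protein that binds Pol I and p53, was 223, 304 and 310.5 CPM in p53+/+ NPCs alone and 134, 164 and 174 CPM in co-culture, in the order 17_9, 25_9 and 1_10 used throughout. Its p53-/- levels were 377, 359 and 343 CPM alone and 173, 221 and 211 CPM in co-culture. The groups did not overlap in either genotype, and Mybbp1a fell by 0.83 ± 0.15 (log2, SE, adjusted p = 0.000972) and by 0.84 ± 0.15 (adjusted p = 0.00122). Polr1e, a Pol I-associated factor, was 28.3, 30.9 and 32.9 CPM alone and 22.2, 24.3 and 25.1 CPM in p53+/+ co-culture. In p53-/- NPCs it was 37.9, 33.1 and 35.5 CPM alone and 18.4, 20.9 and 23.7 CPM in co-culture. Polr1e changed by -0.36 ± 0.13 (adjusted p = 0.0366) in p53+/+ and by -0.76 ± 0.13 (adjusted p = 0.000832) in p53-/- NPCs, and the difference between these changes was not called (-0.39 ± 0.18, adjusted p = 0.701). The catalytic core subunits Polr1a and Polr1b fell by 0.73 and 0.75 in p53+/+ and by 0.55 and 0.75 in p53-/- NPCs. Polr1c, which Pol I shares with Pol III, fell in p53-/- NPCs (-0.67 ± 0.15) and was not called in p53+/+ NPCs (-0.38 ± 0.15, adjusted p = 0.0564), where 1 of its 3 co-culture libraries lay above the lowest library alone.

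Among nucleolar scaffold proteins and regulators, all 5 fell in p53+/+ co-culture (median -1.04) and 4 of 5 in p53-/- co-culture (median -0.85). Gnl3 encodes nucleostemin, a GTPase enriched in the nucleoli of stem cells. It was 92.1, 89.7 and 108 CPM in p53+/+ NPCs alone and 39.1, 44.1 and 55.1 CPM in co-culture. Its p53-/- values were 143, 112 and 172 CPM alone and 57.1, 69.3 and 97.8 CPM in co-culture. Both genotypes were separated by culture, with a fall of 1.07 ± 0.21 (adjusted p = 0.00159) in p53+/+ and of 0.93 ± 0.21 (adjusted p = 0.00423) in p53-/- NPCs. Nolc1, a chaperone of snoRNPs, had the smallest change of this role. Its levels were 137, 176 and 180.4 CPM alone and 79.0, 98.8 and 108 CPM in p53+/+ co-culture, and 208, 189 and 189 CPM alone and 96.8, 130.2 and 145 CPM in p53-/- co-culture. No co-culture library overlapped those alone within the same genotype in p53+/+ or p53-/- NPCs, and Nolc1 fell by 0.79 ± 0.17 and 0.66 ± 0.17. Ncl (nucleolin) and the RNA helicase Ddx21 fell by 0.82 and 1.04 in p53+/+ and by 0.72 and 0.85 in p53-/- NPCs.

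Npm1, the nucleolar chaperone nucleophosmin, had the largest error of all members. Its level was 468, 819 and 774 CPM alone and 192, 401 and 392 CPM in p53+/+ co-culture, and it fell by 1.06 ± 0.37 (adjusted p = 0.0357). In p53-/- NPCs it was 713, 917 and 1137 CPM alone and 228, 532 and 672 CPM in co-culture, a difference of -0.95 ± 0.37 that was not called (adjusted p = 0.0597). In both genotypes all 3 co-cultures lay below all libraries alone, and experiment 17_9 was the lowest in all 4 groups. With the experiment as a block the difference in p53-/- NPCs was called (-1.06, adjusted p = 0.000321). Npm1 has near-identical pseudogene copies in the mouse genome, so that the reads counted for it are uncertain.

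The box C/D snoRNP, which carries out rRNA methylation, held the member with the largest fall. Nop58, a core protein of this particle, was 167, 146 and 159 CPM in p53+/+ NPCs alone and 53.6, 61.7 and 79.7 CPM in co-culture. Without p53 it was 236, 163 and 218 CPM alone and 72.2, 101 and 142 CPM in co-culture. Nop58 fell to 0.413 of its level alone in p53+/+ NPCs (-1.28 ± 0.23, adjusted p = 0.000823) and to 0.511 in p53-/- NPCs (-0.97 ± 0.22, adjusted p = 0.00524), and its value in p53+/+ lay at the 3.44 percentile of all genes tested. The other core protein, Nop56, fell by 1.08 and 1.07, and the methyltransferase Fbl (fibrillarin) by 0.89 and 1.01, in p53+/+ and p53-/- NPCs. Rrp9, a protein of the snoRNP that guides early cleavage, was 25.7, 33.5 and 28.7 CPM alone and 13.4, 23.2 and 17.3 CPM in p53+/+ co-culture. Its p53-/- levels were 50.5, 42.1 and 32.4 CPM alone and 20.9, 27.6 and 25.8 CPM in co-culture. The falls were 0.70 ± 0.21 (adjusted p = 0.0186) and 0.75 ± 0.21 (adjusted p = 0.0145), and the groups did not overlap.

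All 4 proteins of the box H/ACA snoRNP, the pseudouridylation particle that also takes part in the telomerase complex, fell in both genotypes. Dkc1, the pseudouridine synthase dyskerin, was 101, 96.5 and 107 CPM alone and 35.1, 38.7 and 54.4 CPM in p53+/+ co-culture. Without p53 it was 138, 118 and 163 CPM alone and 42.5, 61.9 and 92.1 CPM in co-culture. Its fall was 1.25 ± 0.24 (adjusted p = 0.00156) in p53+/+ and 1.09 ± 0.24 (adjusted p = 0.00403) in p53-/- NPCs, the second largest and the largest of the members. Nop10, the smallest change of the particle in p53+/+ NPCs, was 41.0, 42.1 and 47.3 CPM alone and 27.5, 27.9 and 30.1 CPM in p53+/+ co-culture. Its libraries were close within each group, in p53-/- NPCs too, with 50.8, 47.9 and 60.7 CPM alone and 27.6, 30.6 and 31.1 CPM in co-culture. Nop10 fell by 0.61 ± 0.12 (adjusted p = 0.00176) and by 0.83 ± 0.12 (adjusted p = 0.000301), the lowest p of the members in p53-/- NPCs. Gar1 and Nhp2 fell by 0.90 and 0.61 in p53+/+ and by 0.87 and 0.78 in p53-/- NPCs.

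All 9 members of the small subunit processome, the assembly that folds and cleaves the early precursor, fell in both genotypes, with medians of -0.66 and -0.67. Utp20, a very large scaffold protein, was 127, 105 and 142 CPM alone and 56.1, 55.0 and 76.0 CPM in p53+/+ co-culture. Its p53-/- levels were 87.9, 90.2 and 119.6 CPM alone and 51.8, 58.8 and 76.2 CPM in co-culture. Utp20 fell by 1.00 ± 0.19 (adjusted p = 0.00128) and by 0.67 ± 0.19 (adjusted p = 0.0141). Noc4l, a partner of Nop14, was 31.4, 40.8 and 41.5 CPM alone and 23.2, 27.2 and 29.1 CPM in p53+/+ co-culture. Its p53-/- values were 51.9, 50.6 and 43.4 CPM alone and 24.4, 32.3 and 31.2 CPM in co-culture, with falls of 0.52 ± 0.15 (adjusted p = 0.0175) and 0.73 ± 0.15 (adjusted p = 0.00309). Wdr43, Heatr1, Wdr75 and Utp15, which belong to the first module to join the transcript, fell by 0.90, 0.80, 0.79 and 0.56 in p53+/+ and by 0.73, 0.61, 0.73 and 0.44 in p53-/- NPCs. Utp14a, Utp18 and Nop14 fell by 0.66, 0.57 and 0.54 in p53+/+ and by 0.65, 0.67 and 0.52 in p53-/- NPCs.

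Later steps of small subunit maturation were also lower, 4 of 4 members in each genotype. Tsr1, a GTPase-like factor of the late small subunit, was 91.9, 107 and 125 CPM alone and 50.2, 59.2 and 68.4 CPM in p53+/+ co-culture. Without p53 it was 119.9, 116 and 125 CPM alone and 55.1, 77.8 and 90.4 CPM in co-culture. Tsr1 fell by 0.87 ± 0.18 (adjusted p = 0.00219) and by 0.69 ± 0.18 (adjusted p = 0.00921) without overlap. Nob1, the endonuclease that makes the final cut of small subunit rRNA, was 28.3, 39.4 and 39.9 CPM alone and 19.8, 24.5 and 28.0 CPM in p53+/+ co-culture. Its p53-/- values were 53.5, 49.2 and 48.4 CPM alone and 28.2, 32.1 and 27.9 CPM in co-culture, and it fell by 0.57 ± 0.16 and 0.77 ± 0.16. Rrp12, an export factor, and Bysl (bystin) each fell by 0.62 in p53+/+ NPCs and by 0.68 and 0.76 in p53-/- NPCs.

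Large subunit assembly was the role with members that were not called in either genotype. Of 8 members tested 6 fell in each, with medians of -0.55 in p53+/+ and -0.76 in p53-/- NPCs. Nop2, an rRNA methyltransferase, was 65.6, 86.3 and 92.5 CPM alone and 39.0, 50.9 and 50.8 CPM in p53+/+ co-culture. Its p53-/- values were 108, 92.5 and 84.8 CPM alone and 48.9, 55.4 and 54.2 CPM in co-culture, and it fell by 0.80 ± 0.16 (adjusted p = 0.00157) and 0.85 ± 0.15 (adjusted p = 0.00133). Bop1, Pes1 and Wdr12, which form one complex needed for large subunit rRNA, fell by 0.62, 0.44 and 0.61 in p53+/+ and by 0.77, 0.64 and 0.82 in p53-/- NPCs. Nop16 and Rrs1 fell by 0.57 and 0.52 in p53+/+ and by 0.83 and 0.75 in p53-/- NPCs.

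Rrp1b, a nucleolar protein that also binds chromatin and a phosphatase, stood at the other end of the list. It was 45.1, 56.2 and 74.8 CPM alone and 54.4, 52.4 and 65.4 CPM in p53+/+ co-culture, and 58.0, 65.3 and 65.9 CPM alone and 55.0, 57.9 and 66.4 CPM in p53-/- co-culture. The groups overlapped fully, with differences of -0.03 ± 0.17 (95% interval -0.39 to 0.33) and -0.08 ± 0.17 (-0.44 to 0.28). The lower ends of these intervals do not reach the median change of the members in either genotype. Noc3l, a factor of early large subunit particles, differed by -0.33 ± 0.14 (adjusted p = 0.0701) and -0.28 ± 0.14 (adjusted p = 0.120), and was called in both genotypes in the paired fit with the block (adjusted p = 0.0185 and 0.0345).

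**Figure D2:**
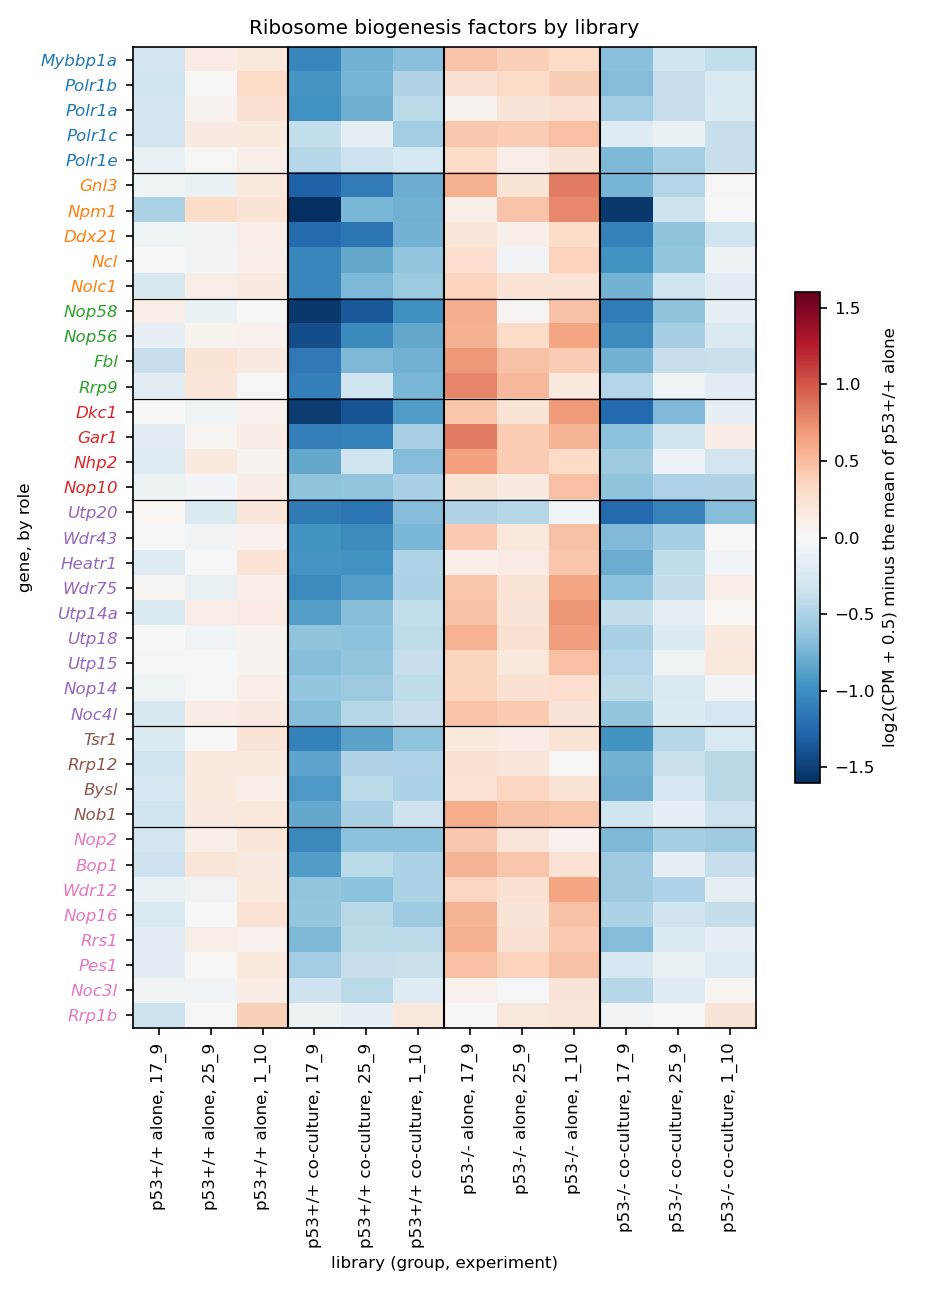
Log2(CPM + 0.5) of the 39 tested members (rows, by role) in the 12 libraries (columns), as the difference from the mean of the 3 p53+/+ libraries alone (white is 0, blue lower, red higher). The co-culture columns are blue in nearly all rows and mostly darkest in experiment 17_9, and the p53-/- columns alone are mostly red, with Utp20 blue.

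The level of the members also differed between experiments within a group. Measured against the mean of its own group, the p53+/+ alone, p53+/+ co-culture and p53-/- co-culture libraries of experiment 17_9 had 3, 0 and 1 of 39 members above that mean, while those of experiment 1_10 had 38, 35 and 36. In p53-/- NPCs alone both experiments had 26 of 39 above the mean. At the median of the members the first 3 libraries lay at -0.18, -0.21 and -0.25 in log2 and the last 3 at 0.14, 0.18 and 0.20, less than the median change with co-culture.

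**Figure D3:**
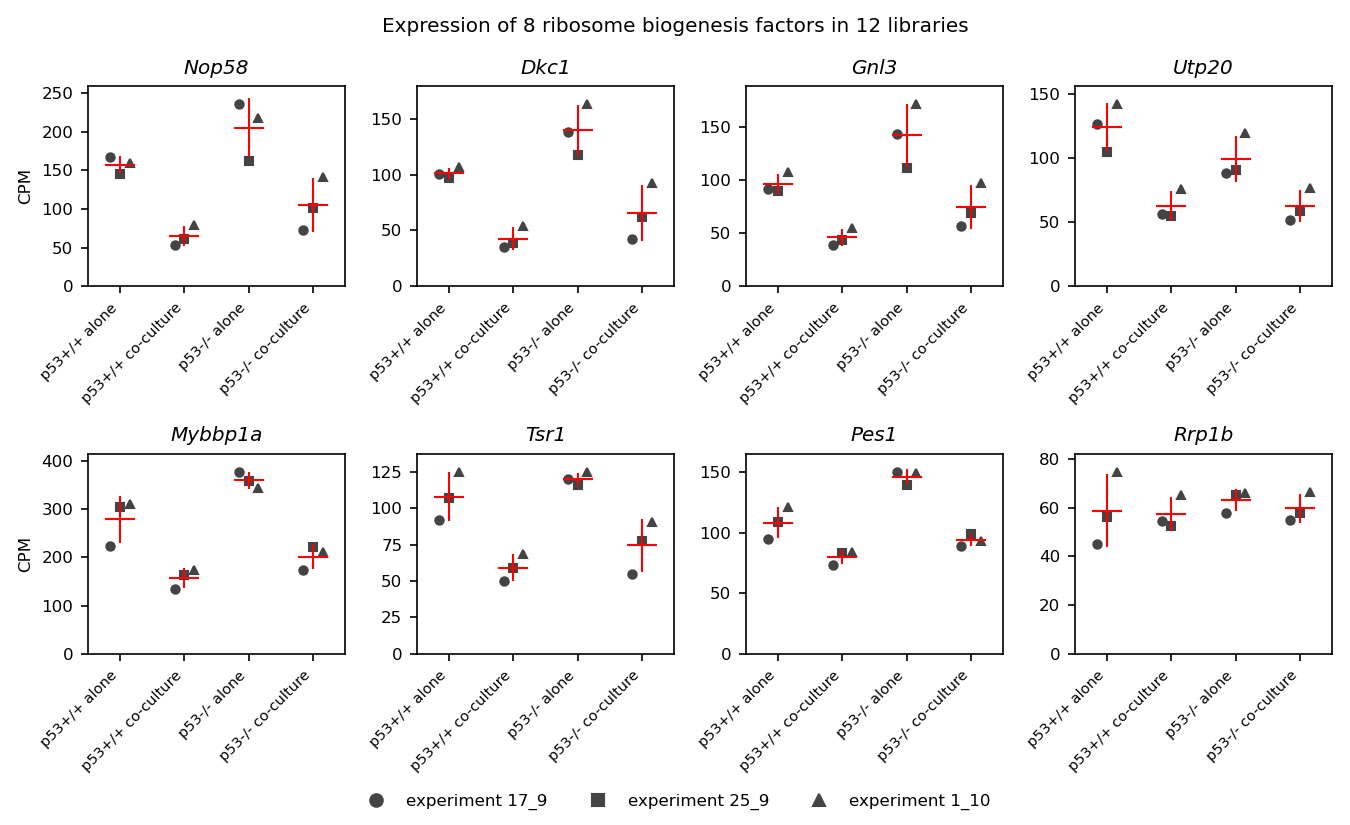
CPM of 8 members in each library (grey symbols, 1 shape per experiment), with the group mean and SD in red (n = 3), on axes that start at 0. Nop58, Dkc1, Gnl3, Mybbp1a and Tsr1 separate by culture in both genotypes, the mean of Utp20 alone is lower in p53-/- than in p53+/+ NPCs, and Rrp1b overlaps in all 4 groups.

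Loss of p53 went with a higher level of most members in NPCs alone. In the paired fit 14 members were called higher and 1 lower (7.25% and 9.33% of all genes), as given below. Without the block 1 member only passed the test. Of 39 members, 38 had a log2 fold change above 0 (median 0.37, against 0.05 for all genes), 21 had an unadjusted p under 0.05 (23.8% of all genes), 1 was called higher and 0 lower, where 2.02% of all genes were called higher and 4.27% lower. DESeq2 called 2 higher (3.73% of all genes). In all 3 experiments 34 members were higher (30.8% of all genes), and 24 did not overlap between genotypes (15.0%). The medians within experiments 17_9, 25_9 and 1_10 were 0.56, 0.21 and 0.26. The highest median was that of experiment 17_9, whose p53+/+ library alone had 3 of 39 members above the mean of its group, and both of whose libraries alone had the raised sums of mural and fibroblast markers (757 CPM in p53+/+ and 1339 CPM in p53-/- NPCs). Whether these sums come from mural cells or fibroblasts, and what part they have in the difference, was not tested.

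The member called without the block was Pes1, which encodes pescadillo, the partner of Bop1 and Wdr12. It was 95, 109 and 121 CPM in p53+/+ and 150.3, 139 and 149 CPM in p53-/- NPCs alone, without overlap. It rose by 0.43 ± 0.11 (1.35-fold, adjusted p = 0.040; with the block 0.44, adjusted p = 0.0110). When each of the 12 libraries was left out in turn, the call was kept once, without the p53+/+ library alone of experiment 1_10, and ended in the other 11 fits, with an adjusted p of 0.0356 to 0.137 and a log2 fold change of 0.35 to 0.52. In co-culture Pes1 was 73.0, 83.0 and 83.9 CPM in p53+/+ and 89.3, 99.2 and 92.9 CPM in p53-/- NPCs, again without overlap, and the difference of 0.23 ± 0.11 was not called (adjusted p = 0.227).

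In the paired fit, with the experiment as a block and genotypes compared within a repeat, 14 members were called higher and 1 lower in NPCs alone (7.25% and 9.33% of all genes). The paired fit called members of every role: Mybbp1a and Polr1c of Pol I transcription, Gnl3 of the nucleolar regulators, Fbl and Nop56 of the C/D particle, Gar1 and Nhp2 of the H/ACA particle, Utp14a, Utp18 and Wdr75 of the processome, Nob1 of late maturation, and Pes1, Wdr12 and Nop16 of large subunit assembly. Their changes ran from 0.39 (Mybbp1a) to 0.62 (Gar1). The member called lower was Utp20, at -0.33 ± 0.10 (adjusted p = 0.0414). It was the single member below 0 without the block as well (-0.33 ± 0.19, adjusted p = 0.306), and its p53-/- libraries alone lay below those of p53+/+ NPCs of the same experiment in all 3 experiments.

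In co-culture the difference between genotypes had the same sign for most members, and the paired fit called 16 of them higher, as given below. Without the block edgeR's quasi-likelihood test called 0 higher and 0 lower of 39, where 3.24% and 4.93% of all genes were called. At an unadjusted p under 0.05 there were 16 (25.3% of all genes), and DESeq2 called 4 higher (Gnl3, Nop58, Wdr43 and Gar1; 5.40% of all genes). Of the 39, 37 were above 0, with a median of 0.31, and 35 were higher in all 3 experiments (32.0% of all genes), but 4 did not overlap between genotypes (14.4%). The largest difference was that of Gnl3, 0.70 ± 0.21 (95% interval 0.25 to 1.14, adjusted p = 0.0562), followed by Nop58 at 0.69 ± 0.22 (adjusted p = 0.0732). Polr1e was at -0.19 ± 0.13 and Utp20 at 0.00 ± 0.19. In the paired fit with the block 16 members were higher and 0 lower (9.99% and 10.9% of all genes), among them 7 of the 9 processome members, Gnl3 at 0.68 ± 0.13 (adjusted p = 0.00320) and Wdr43 at 0.51 ± 0.12 (adjusted p = 0.0132). No large subunit or late maturation member was called there. Without the block, 8 members were called higher when the p53-/- co-culture of experiment 17_9 was left out (4.05% of all genes), 3 without the p53+/+ co-culture of experiment 1_10 (4.24%) and 1 without the p53-/- library alone of experiment 1_10 (3.15%).

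**Figure D4:**
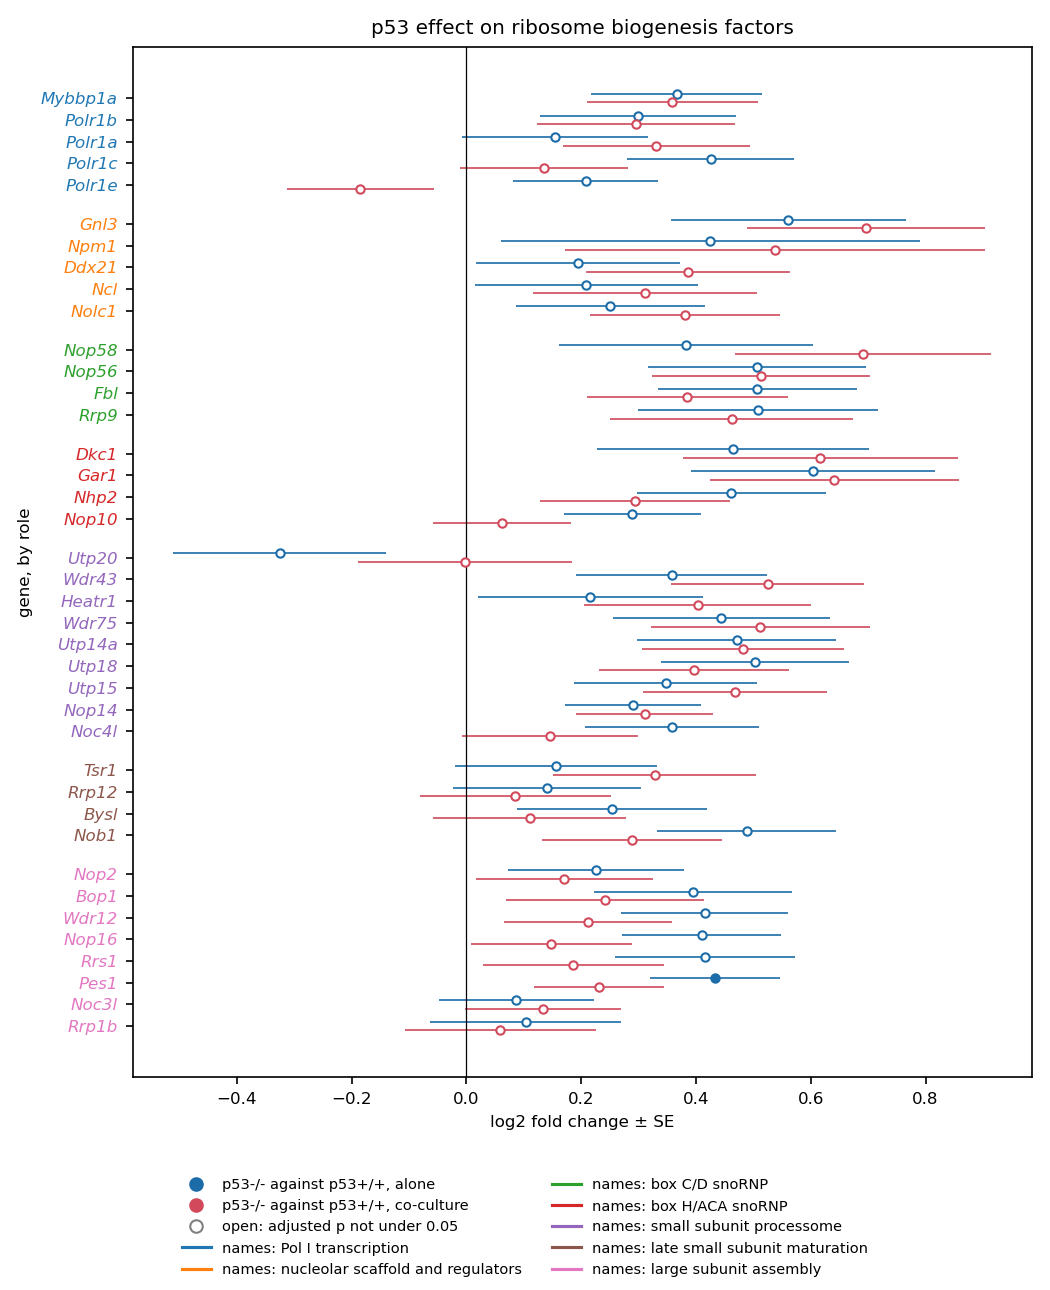
Log2 fold change of p53-/- against p53+/+ for the 39 tested members (points, with SE as bars), alone (blue) and in co-culture (red), grouped by role; open points did not pass an adjusted p of 0.05. Calls are those of the fit without the experiment as a block. Pes1 alone holds the single filled point, and Utp20 lies below 0 in NPCs alone.

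Whether the response to bmvECs depended on p53 was tested as the interaction, the log2 fold change with co-culture in p53-/- minus that in p53+/+ NPCs. No member was called (0.0364% of all genes were), 1 had an unadjusted p under 0.05 (7.10% of all genes), and DESeq2 and the paired fit with the block also called 0. The interaction ran from -0.39 to 0.32 with a median of 0.00. The 95% intervals of 38 of the 39 members lay within 1 of 0, and the widest, that of Npm1, reached from -1.0 to 1.23. The limit of 1 exceeds the median change of the members with co-culture (-0.70 in p53+/+ and -0.75 in p53-/- NPCs). An interval within it can therefore still hold a difference as large as that change. The member with the unadjusted p under 0.05 was Polr1e, at -0.39 ± 0.18 (95% interval -0.78 to -0.00488, adjusted p = 0.701). Utp20 had the highest value, 0.32 ± 0.26 (-0.24 to 0.89), followed by Nop58 at 0.31 ± 0.31 (-0.37 to 0.98). By role, 7 of 9 processome members and 5 of 5 nucleolar members were above 0, and 7 of 8 large subunit members were below 0; these differences between roles were not tested. The comparisons share libraries, so that their values stand side by side and their likeness is not a result.

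Other genes of the pathway and of growth were set beside the members. Of 106 other ribosome biogenesis genes tested, 63 fell and 1 rose in p53+/+ co-culture (median -0.47) and 76 fell and 0 rose in p53-/- co-culture (median -0.57). The largest falls in p53+/+ NPCs were those of Exosc8, a subunit of the RNA exosome (42.7, 46.5 and 44.2 CPM alone, 17.3, 21.0 and 23.0 CPM in co-culture, -1.12 ± 0.16), Mdn1, a large ATPase of late large subunit assembly (-1.07 ± 0.26), and Tex10 (-1.01 ± 0.18). The gene that rose was Nop9, 55.2, 57.8 and 60.0 CPM alone and 92.5, 111 and 75.6 CPM in co-culture (0.69 ± 0.14, adjusted p = 0.00216). In p53-/- NPCs Exosc8 and Tex10 fell as well (-0.93 and -0.66), while Mdn1 and Nop9 were at 0.05 ± 0.26 and -0.03 ± 0.14. Their interactions were 1.12 ± 0.36 and -0.72 ± 0.20, neither of them called (adjusted p = 0.670 and 0.666). Between genotypes 9 of the 106 rose alone, and 2 rose and 1 fell in co-culture. Of all genes, 2.02% rose and 4.27% fell alone, and 3.24% rose and 4.93% fell in co-culture. In the paired fit with the block 31 rose and 1 fell alone, and 20 rose and 1 fell in co-culture. There 7.25% of all genes rose and 9.33% fell alone, and 9.99% rose and 10.9% fell in co-culture.

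Cytosolic ribosomal protein genes fell in 56 of 74 cases in p53+/+ and in 69 of 74 in p53-/- co-culture (medians -0.50 and -0.65), and with p53 loss 17 of 74 rose alone (median 0.42) and 1 of 74 in co-culture (median 0.24). The paired fit with the block called 42 and 10 of them higher. Of all genes, 2.02% alone and 3.24% in co-culture rose without the block, and 7.25% and 9.99% with it. DNA replication genes, which follow the dividing fraction of a culture, fell in 39 of 40 cases in p53+/+ and in 38 of 40 in p53-/- co-culture, with medians of -1.33 and -0.90; the interaction was called for 0 of the 40 by edgeR, with the block and by DESeq2, and 1 had an unadjusted p under 0.05. In co-culture 17 of the 40 were higher in p53-/- NPCs (median 0.66), against 0 of the 39 ribosome biogenesis factors, and in the paired fit with the block the counts were 35 of 40 and 16 of 39; whether the lists differ was not tested. Of 17 growth regulators tested, 2 rose and 5 fell in p53+/+ co-culture and 4 rose and 4 fell in p53-/- co-culture, with a median of -0.09 in each. Of all genes, 21.2% rose and 18.3% fell in p53+/+ co-culture, and 18.8% rose and 17.0% fell in p53-/- co-culture. With p53 loss 2 rose and 4 fell alone, and 0 rose and 3 fell in co-culture, where the block gave 3 higher and 3 lower. This list includes the deleted gene Trp53, the p53 target Cdkn1a, and Mdm2. Its falls with p53 loss are therefore in part set by the deletion and are not a result about growth genes. Myc was 117, 101 and 98.2 CPM alone and 51.5, 57.0 and 66.3 CPM in p53+/+ co-culture, and fell by 0.85 ± 0.19 (adjusted p = 0.00364) there and by 0.90 ± 0.19 (adjusted p = 0.00321) in p53-/- NPCs. Mycn, the Myc paralog of neural progenitors, fell from 12.1, 6.36 and 6.76 CPM to 1.47, 1.77 and 2.00 CPM in p53+/+ co-culture (-2.25 ± 0.39) and by 1.67 ± 0.37 in p53-/- NPCs. Neither was called between genotypes, at 0.49 ± 0.19 (adjusted p = 0.135) for Myc and 0.44 ± 0.35 for Mycn in NPCs alone. Mdm2, the ligase that degrades p53, fell with p53 loss by 0.99 ± 0.19 alone and was not called with co-culture (-0.34 ± 0.19 in p53+/+ NPCs). The part of cell division and of Myc in the fall of the members was not tested.

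**Figure D5:**
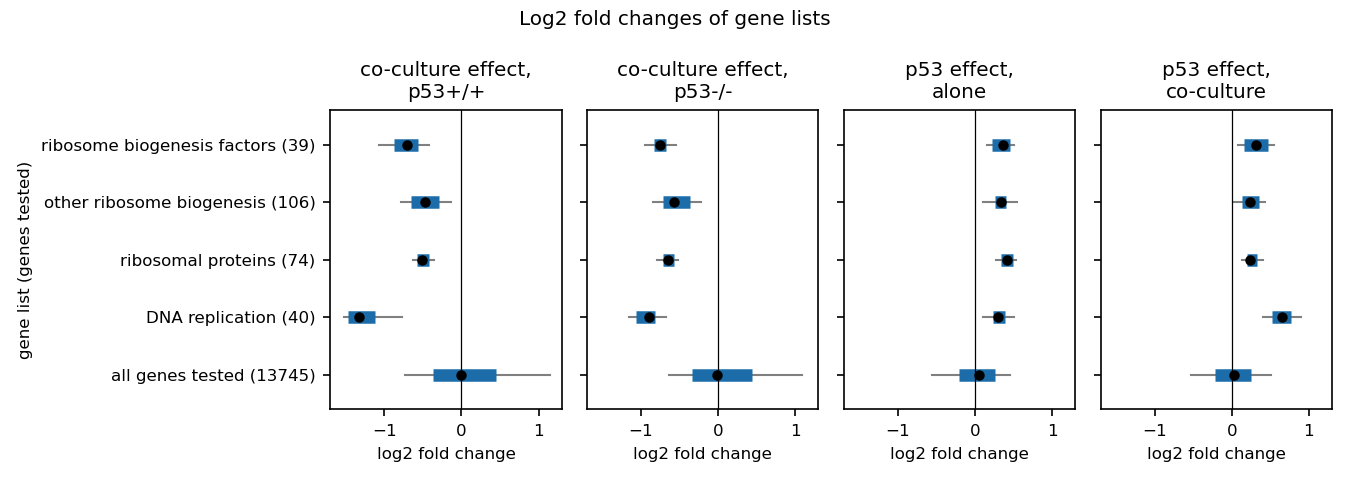
Log2 fold changes of 5 gene lists (rows, with the number of genes tested) in the 4 pairwise comparisons (panels); dots are medians, thick bars the middle 50% and thin lines the middle 80% of genes. Ribosome biogenesis factors lie left of 0 in both co-culture panels, between other ribosome biogenesis genes and DNA replication genes, and right of 0 in both p53 panels.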

How the data were processed

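Per the submitters' processing notes, the authors used TopHat2 2.0.11 for alignment, HTSeq 0.6.1 for gene counts and the build mm9. The deposited values are these raw counts. Libraries were made with a stranded mRNA kit, and for the strand setting and annotation version of the counting the sources used here give nothing, so that overlapping and antisense genes are uncertain. Columns were assigned to groups by the study's own key, and the experiment number in the column names, which the key says pairs the libraries, was not tied to a repeat of the labels.

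Counts were filtered with filterByExpr and scaled with TMM (factors 0.961 to 1.04) in edgeR 4.0.16 (R 4.3.3). One quasi-likelihood fit of all 12 libraries had a mean for each group and no term for the experiment. In it 5 comparisons were tested, and p-values were adjusted by Benjamini-Hochberg over 13745 genes. The SE is the log2 fold change divided by the root of F. CPM use the TMM library sizes. The script was tested on simulated counts. DESeq2 1.42.0 and other fits served as alternatives. Figures were drawn with matplotlib 3.10.9. The experiment numbers pair the libraries: in all 18 same-experiment pairs the deviations from group means correlated (r from 0.128 to 0.618), against -0.608 to 0.241 in 36 other pairs. Counts of libraries of a group differed by 12.6 to 59.4 times the counting variance, so that no library was a copy of another.

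The members and all gene lists were chosen with earlier results of these data known. All members are named. Values of every library are given for the lowest and highest co-culture change of each role and for Pes1, called between genotypes without the block. They are also given for Npm1, which was chosen after its values were seen. Motif shares are from RefSeq promoters of GRCm38.p6, and no other coordinates were used.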

Additional observations from a re-analysis of the deposited data

How the results depend on the processing

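Among the members, no called value changed direction under any alternative. In p53+/+ co-culture 10 of the 36 calls were kept in every alternative and in p53-/- co-culture 18 of 36. At an adjusted p under 0.01 the p53+/+ count was 23. Leaving out 1 library or 1 experiment gave 11 to 38 calls in p53+/+ and 21 to 38 in p53-/- co-culture. Both were lowest without experiment 25_9, where 5.66% and 5.83% of all genes fell and fewer libraries were fitted. Between genotypes alone the count was 1, where 2.02% of all genes were higher and 4.27% lower. It became 0 with upper-quartile scaling, library size alone, no filter on low counts, only the groups compared, or an adjusted p under 0.01. DESeq2 gave 2 (3.73% of all genes higher) and the replicate block 15 (7.25% higher and 9.33% lower). DESeq2 with the block gave 20, and leaving libraries out gave 0 to 1. In co-culture the count was 0, where 3.24% of all genes were higher and 4.93% lower. It became 1 with upper-quartile scaling or no filter and 2 with library size alone. DESeq2 gave 4 (5.40% higher) and the replicate block 16 (9.99% higher and 10.9% lower). DESeq2 with the block gave 17. Leaving libraries out gave 0 to 8, the highest without the p53-/- co-culture of experiment 17_9 (4.05% higher). Shares of all genes for the other settings are not given here. Why the counts moved was not tested. The interaction stayed at 0 throughout. No scaling moved the median of all genes by over 0.1. Every member had at least 198 counts in each library.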
